A study of Mus musculus with 8 samples.

Results

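Neurexins, neuroligins and the LRRTM (leucine-rich repeat transmembrane) proteins are surface proteins that join the membranes on either side of a synapse, and 9 of their genes are described here: the neurexin genes Nrxn2 and Nrxn3, the neuroligin genes Nlgn1, Nlgn2 and Nlgn3, and the LRRTM genes Lrrtm1, Lrrtm2, Lrrtm3 and Lrrtm4. They were chosen by name, as the rows of the authors' deposited table whose RefSeq accessions belong to these genes. Each of the 9 genes had 1 row, out of 15978 rows in all. The table compares 5 brain RNA samples from male mice carrying a BAC (bacterial artificial chromosome, which holds a long insert of genomic DNA) with human C9ORF72 and 500 repeats of G4C2, called C9-BAC here, with 3 from wild-type male mice. All 8 samples came from the SJL/Bl6 background. Expansion of the G4C2 repeat causes inherited forms of amyotrophic lateral sclerosis and frontotemporal dementia. The labels give no age, brain region or batch, and do not say whether each sample is a separate mouse or whether any were pooled.

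Neurexins sit mainly in the presynaptic membrane, and each neurexin gene makes long alpha and short beta forms from separate promoters, with extensive alternative splicing. Neuroligins bind neurexins from the postsynaptic side. Neuroligin 1 is found mostly at excitatory synapses, neuroligin 2 at inhibitory synapses and neuroligin 3 at both kinds. LRRTM proteins are postsynaptic partners at excitatory synapses. LRRTM1 and LRRTM2 bind neurexins, and LRRTM4 binds heparan sulfate proteoglycans such as glypicans.

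The deposited table has a single fold change for each gene, so the values of single samples and the spread between them were not analysed here. Each row gives a mean normalized count (counts divided by size factors and averaged over samples), a log2 fold change with its standard error (SE), a Wald statistic (their ratio) and DESeq2 p-values. The header does not say which genotype is the numerator, so a positive or a negative sign is as deposited and is not a direction in C9-BAC mice. In bulk brain tissue, fewer cells of a type and less RNA per cell cannot be told apart. Markers of the labelled tissue were present: in the authors' deposited table the neuronal markers Snap25, Syt1 and Rbfox3 had mean normalized counts of 1806 to 13870, and the oligodendrocyte, astrocyte and microglial markers 92.73 to 45840. Of markers of other tissues, the authors' deposited table listed the skeletal muscle gene Acta1 at 103.4, the pituitary genes Pomc and Gh at 17.16 and 5.018, and the liver gene Apoa1 at 1.855. The muscle gene Ckm, the pituitary gene Prl and the liver gene Alb had no row. The markers of excitatory neurons, Slc17a7 and Camk2a, stood at 0.04 and 0.17 on the log2 fold change scale of the authors' deposited table, and those of inhibitory neurons, Gad1, Gad2 and Slc32a1, had -0.19, -0.19 and -0.00. In the authors' deposited table none of these marker genes with a p-value reached an unadjusted p of 0.05, and Gh had no p-value. The part of these genes in the values below was not tested.

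None of the 9 adhesion genes passed. At a DESeq2 adjusted p of 0.05 the authors' deposited table called 0 of the 9, and 0 of all 15944 rows with a p-value (0%). At an unadjusted DESeq2 p under 0.05 it held 0 of the 9 as well, where 239 of 15944 rows (1.50%) reached that level. At that share a count of 0 among 9 does not set these genes apart. Evenly spread p-values would put more rows under 0.05 than this, and 61.5% of rows had an unadjusted DESeq2 p over 0.5. The p-values given here therefore do not show how rare a value is among the rows. Signs were mixed: 6 of the 9 were positive and 3 negative, and the authors' deposited table put their median log2 fold change at 0.02, while 47.4% of all rows were positive and the median of all rows was -0.0044. Values ran from -0.08 for Lrrtm4 to 0.16 for Lrrtm1, and 8 of the 9 lay within the middle 95% of all rows, from -0.15 to 0.15, in the authors' deposited table. Lrrtm1 was the exception.

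**Figure D1:**
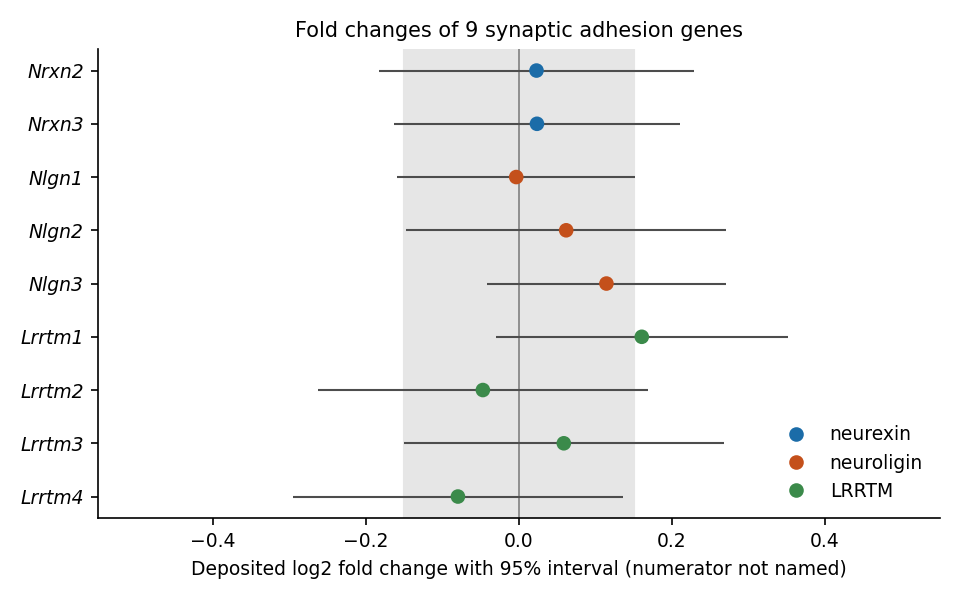
Deposited log2 fold change of each gene (point) with its 95% interval from the standard error (line). The grey band is the middle 95% of all 15978 rows, from -0.15 to 0.15; every line crosses 0, and the point for Lrrtm1 at 0.16 lies just outside the band.

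Both neurexin genes had values close to 0. Nrxn2, on chromosome 19 at 6418756 to 6533217 on the plus strand (GRCm38, also called mm10), had 0.02 as its log2 fold change in the authors' deposited table (SE 0.105, DESeq2 p = 0.827, adjusted p = 0.9997), at 2573 mean normalized counts. The 95% interval of that value, taken from its SE, spans -0.18 to 0.23, which is 0.881-fold to 1.171-fold. Nrxn3, on chromosome 12 at 88722701 to 90334935 on the plus strand, was listed in the authors' deposited table at a mean normalized count of 4613, with 0.02 as its log2 fold change (SE 0.095, DESeq2 p = 0.805, adjusted p = 0.9997). Its interval spans -0.16 to 0.21. The statistics of Nrxn2 and Nrxn3, 0.22 and 0.25 in the authors' deposited table, lay at the 63.7th and 64.9th percentiles of all rows.

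Each neurexin row names several forms of the gene under a single value. The Nrxn3 row named 3 RefSeq transcripts, whose GENCODE matches had coding lengths of 4713, 3300 and 1701 bases and 20, 20 and 7 exons. The last of these is the shortest, and a change in it alone cannot be told apart from a change in the others. The Nrxn2 row also named 3 transcripts, with coding lengths of 5109, 4509 and 4533 bases and 22 or 23 exons each. Differences in splicing or in the use of the alpha and beta promoters were therefore not measured by these rows.

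The neuroligin genes gave 2 positive values and 1 just under 0. Nlgn3, on chromosome X at 101299179 to 101321350 on the plus strand, had 0.11 as its log2 fold change in the authors' deposited table (SE 0.080, DESeq2 p = 0.152, adjusted p = 0.9997), at 1243 mean normalized counts. This is 1.082-fold, with an interval of 0.971-fold to 1.206-fold, and its statistic of 1.43 stood at the 96.8th percentile of all rows. Nlgn2, the inhibitory-synapse neuroligin, on chromosome 11 at 69823123 to 69837784 on the minus strand, was listed in the authors' deposited table at a mean normalized count of 1768, with 0.06 as its log2 fold change (SE 0.107, DESeq2 p = 0.563, adjusted p = 0.9997). Its interval spans -0.15 to 0.27. Nlgn1, the excitatory-synapse neuroligin, on chromosome 3 at 25421808 to 26332866 on the minus strand, had -0.0036 as its log2 fold change in the authors' deposited table (SE 0.079, DESeq2 p = 0.964, adjusted p = 0.9997), at 1785 mean normalized counts. Its interval, 0.896-fold to 1.111-fold, overlaps those of Nlgn2 and Nlgn3, and the differences between these genes were not tested.

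The LRRTM genes held both ends of the range. Lrrtm1, on chromosome 6 at 77229210 to 77259915 on the plus strand, had the smallest p of these genes (DESeq2 p = 0.0994, adjusted p = 0.9997), with 0.16 as its log2 fold change in the authors' deposited table (SE 0.097, mean normalized count 388.5). This is 1.118-fold with an interval of 0.979-fold to 1.276-fold, and its statistic of 1.65 stood at the 98.4th percentile of all rows. Lrrtm3, on chromosome 10 at 63928497 to 64090255 on the minus strand, was listed in the authors' deposited table at a mean normalized count of 666.8, with 0.06 as its log2 fold change (SE 0.107, DESeq2 p = 0.583, adjusted p = 0.9997). Both remaining LRRTM genes had negative signs. Lrrtm2, on chromosome 18 at 35209003 to 35215024 on the minus strand, had -0.05 as its log2 fold change in the authors' deposited table (SE 0.110, DESeq2 p = 0.668, adjusted p = 0.9997), at 893.1 mean normalized counts. Lrrtm4, on chromosome 6 at 80018858 to 80810162 on the plus strand, was listed in the authors' deposited table at a mean normalized count of 632.1, with -0.08 as its log2 fold change (SE 0.110, DESeq2 p = 0.468, adjusted p = 0.9997). The intervals of Lrrtm1, -0.03 to 0.35, and Lrrtm4, -0.30 to 0.14, overlap.

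All but Lrrtm4 of the LRRTM genes lie inside alpha-catenin genes, which code for proteins that link cadherins to actin, and on the opposite strand. Lrrtm1 lies within Ctnna2, Lrrtm2 within Ctnna1 and Lrrtm3 within Ctnna3, per GENCODE vM21. Only the Lrrtm2 pair has annotated exons that overlap. The host rows stood close to 0 in log2 fold change in the authors' deposited table: 0.04 for Ctnna2 (SE 0.08, mean normalized count 2305), 0.01 for Ctnna1 (SE 0.09, mean normalized count 579.5) and 0.05 for Ctnna3 (SE 0.11, mean normalized count 34.35). The libraries were strand-specific per the labels, but no source used here says whether the counting used strand. Without it, reads of Lrrtm2 and of the overlapping Ctnna1 exons cannot be told apart, and the Lrrtm2 value is uncertain for that reason. Lrrtm1 and Lrrtm3 lie between annotated exons of their hosts, and the libraries had no poly(A) selection. Counted without strand, reads of unspliced Ctnna2 and Ctnna3 RNA could also fall to Lrrtm1 and Lrrtm3. The share of such reads was not tested. Exons of Nrxn2, Nrxn3, Nlgn1 and Lrrtm4 overlap antisense or other opposite-strand annotations, and those of Nlgn3 overlap a transcript on the same strand, Gm21986, while Nlgn2 overlaps no other annotated gene.

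Levels were compared per length, as the mean normalized count divided by the length in kb of the longest transcript that the row names. Nrxn3 stood highest at 582 per kb, followed by Nrxn2 at 386 and Nlgn2 at 353. The other 6 genes lay close together, from 143 per kb for Lrrtm4 to 171 for Lrrtm3, with Nlgn3 at 147, Nlgn1 at 151, Lrrtm1 at 154 and Lrrtm2 at 157. Against all rows with a length, these levels ranged from the 71.7th percentile for Lrrtm4 to the 94.1st for Nrxn3. The table gives no spread over samples for a level, so it cannot be said which neighbours in this order differ. Length itself moved the order. With the shortest named transcript the level of Nlgn1 became 592 per kb, 3.92 times the value with the longest, and its place went from 7 to 2 of 9, while Nrxn3 became 1260 per kb and stayed in place 1. The longest Nlgn1 transcript has 11807 bases and the shortest 3013, with coding lengths of 2529 and 2442.

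**Figure D2:**
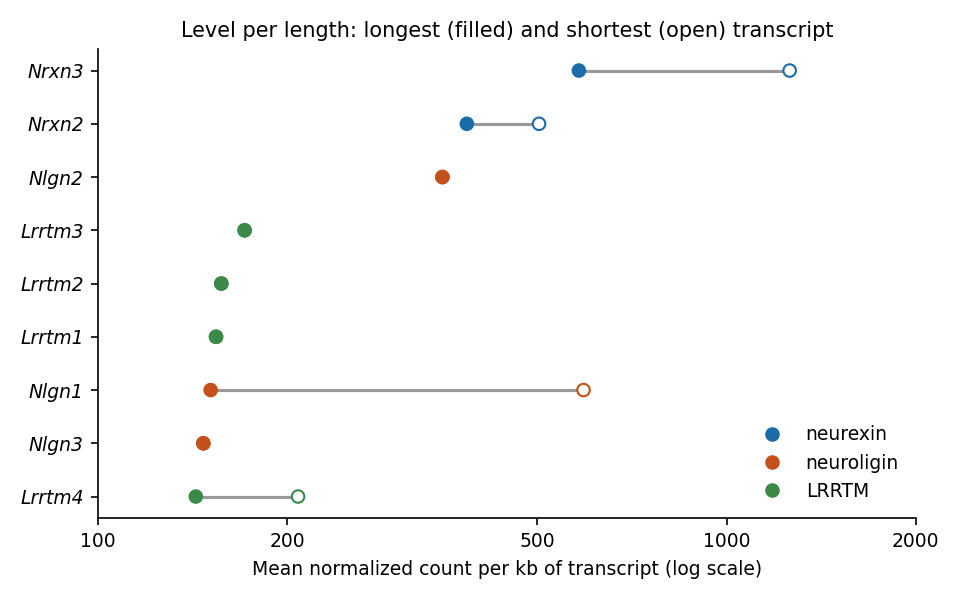
Mean normalized count per kb of transcript, on a log axis, with the longest transcript a row names (filled) and the shortest (open); genes with 1 transcript have a single point. Nrxn3 is highest with either length, and Nlgn1 goes from 151 to 592 per kb.

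The standard errors differed between genes of like abundance. Nlgn1 and Nlgn3 had SEs of 0.079 and 0.080 in the authors' deposited table, at the 7.76th and 5.76th percentiles of the rows in the same 20th of the table by mean normalized count. At the other end, Lrrtm2 and Lrrtm4 had an SE of 0.110 in the authors' deposited table, at the 98th and 97.6th percentiles of their 20ths, and the highest SE of any row was 0.1100. SEs that stop at a ceiling and get smaller at low counts can come from a fit in which a prior shrinks the fold changes. No source used here records that step. With such a prior the fold changes and intervals given here understate differences and set no upper limit on them.

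**Figure D3:**
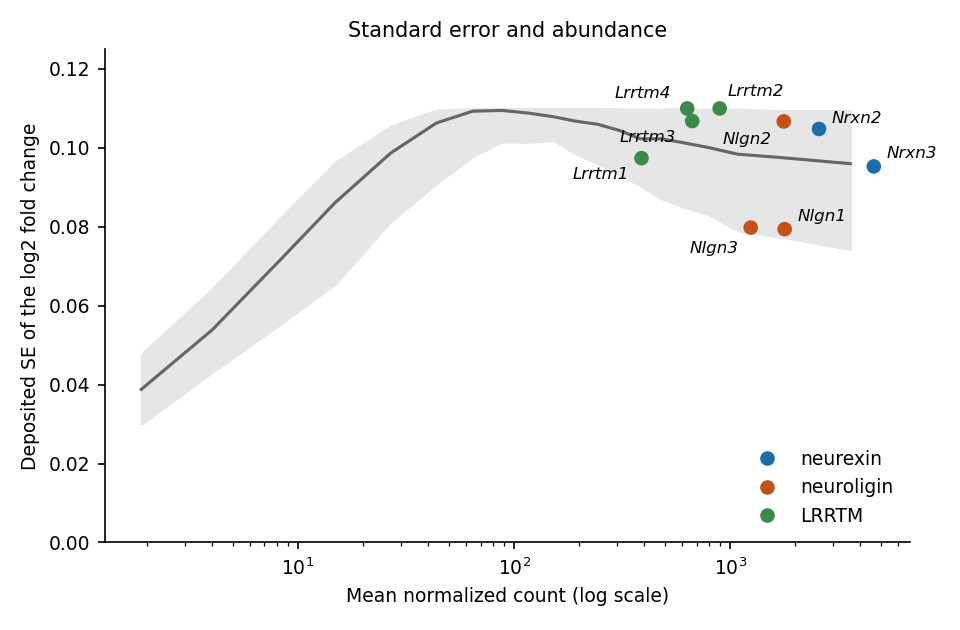
Deposited standard error against mean normalized count (log axis), with the median (line) and the 5th to 95th percentiles (band) of all rows in 20 bins. Nlgn1 and Nlgn3 lie near the lower edge of the band, and Lrrtm2 and Lrrtm4 at its top.

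The 9 genes differ widely in base composition, and the Wald statistics of the whole table went up with the GC content of transcripts (Spearman's rho 0.37 over 15751 rows, which are not independent replicates). GC content of the longest named transcript was 62.4% for Nrxn2, 59% for Nlgn2, 56% for Lrrtm1, 49.3% for Nlgn3, 47.5% for Nrxn3, 44.5% for Lrrtm3, 38.9% for Nlgn1, and 38.4% for both Lrrtm2 and Lrrtm4, against a median of 50.3% over all rows. Each of the 3 genes over that median had a positive sign. The 6 under it divided into 3 positive and 3 negative, and the negative genes Nlgn1, Lrrtm2 and Lrrtm4 were those with the lowest GC content. With all rows divided by GC content into 5 equal groups, 23% were positive in the group of lowest GC content and 66.1% in the group of highest. Over the 9 genes Spearman's rho between GC content and the statistic was 0.68, given as a description of genes that share the same libraries.

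Within families, related genes code with different bases. At the third position of codons, where a change often leaves the amino acid as it is, the GC share was 43.4% in Nlgn1, 63.3% in Nlgn3 and 73.7% in Nlgn2, and 49.9% in Lrrtm2, 58.4% in Lrrtm4, 63.7% in Lrrtm3 and 78% in Lrrtm1, with a median of 61.3% over 15074 rows. The LRRTM genes Lrrtm1, Lrrtm3 and Lrrtm4 are shown to make this visible, each by the 90 coding bases, within a single exon of all of them, in which they are most alike. Sequences are from GENCODE vM21 transcripts (GRCm38), 5′ to 3′ on the coding strand, and capitals mark the 36 positions at which the genes are not all the same, 22 of them at the third base of a codon.
Lrrtm1, chr6:77244168-77244257, plus strand, exon 2 of 2: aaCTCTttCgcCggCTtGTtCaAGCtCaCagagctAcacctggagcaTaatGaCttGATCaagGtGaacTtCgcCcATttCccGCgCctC
Lrrtm3, chr10:64088703-64088792, minus strand, exon 2 of 3: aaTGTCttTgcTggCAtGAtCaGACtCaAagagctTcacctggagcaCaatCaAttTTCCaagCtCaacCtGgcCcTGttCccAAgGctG
Lrrtm4, chr6:80022204-80022293, plus strand, exon 2 of 3: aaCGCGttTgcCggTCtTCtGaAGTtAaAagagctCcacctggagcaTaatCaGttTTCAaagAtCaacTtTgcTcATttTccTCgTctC
At the 36 capitals, whatever their place in the codon, Lrrtm1 has G or C at 24, Lrrtm3 at 21 and Lrrtm4 at 16. At the third positions of the 30 codons the counts are 24, 20 and 15. The log2 fold changes of these genes in the authors' deposited table were 0.16, 0.06 and -0.08. Lrrtm2, whose sequence is not shown, does not follow that order: its GC share at the third position of codons was the lowest of the LRRTM genes, 49.9%, while the authors' deposited table puts its log2 fold change, -0.05, above that of Lrrtm4. Over whole coding sequences Lrrtm3 and Lrrtm4 were 62.5% identical over 1741 aligned bases, Lrrtm1 and Lrrtm3 55.8% over 1532, and Lrrtm1 and Lrrtm4 56.8% over 1546.

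The neuroligins were more alike, at 64.1% for Nlgn1 and Nlgn2, 67.7% for Nlgn1 and Nlgn3 and 66.5% for Nlgn2 and Nlgn3. Their most alike 90 bases, shown for contrast and marked in the same way, differ at 24 positions, 17 of them at the third base of a codon.
Nlgn1, chr3:25439980-25440069, minus strand, exon 6 of 8: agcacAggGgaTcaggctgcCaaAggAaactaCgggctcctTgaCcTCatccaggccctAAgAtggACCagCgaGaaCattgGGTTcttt
Nlgn2, chr11:69828106-69828195, minus strand, exon 4 of 7: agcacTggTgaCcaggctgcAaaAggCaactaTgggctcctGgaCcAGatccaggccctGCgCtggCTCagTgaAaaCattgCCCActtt
Nlgn3, chrX:101315140-101315229, plus strand, exon 5 of 7: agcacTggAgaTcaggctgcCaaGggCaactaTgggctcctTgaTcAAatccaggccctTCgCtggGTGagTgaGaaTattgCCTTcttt
Here Nlgn1 has G or C at 12 of the 24 capitals, Nlgn2 at 14 and Nlgn3 at 10, an order that matches neither the GC content of the whole transcripts nor the fold changes. At the third positions of the 30 codons the counts are 20, 20 and 17.

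With the median of rows of like GC content taken off, the log2 fold changes were 0.13 for Lrrtm1, 0.12 for Nlgn3, 0.09 for Lrrtm3, 0.06 for Nlgn1, 0.04 for both Nrxn3 and Nlgn2, 0.02 for Lrrtm2, -0.01 for Nrxn2 and -0.02 for Lrrtm4. The signs of Nrxn2, Nlgn1 and Lrrtm2 thus turned. Lrrtm1 and Nlgn3 had the highest values before and after this step, and neither passed. With a running trend on GC content taken off the Wald statistic, Nlgn3 had a statistic of 1.49 and Lrrtm1 one of 1.39, the highest of these genes. Their two-sided normal p-values, not adjusted, were 0.136 and 0.163. The part of base composition in the deposited values was not tested further.

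**Figure D4:**
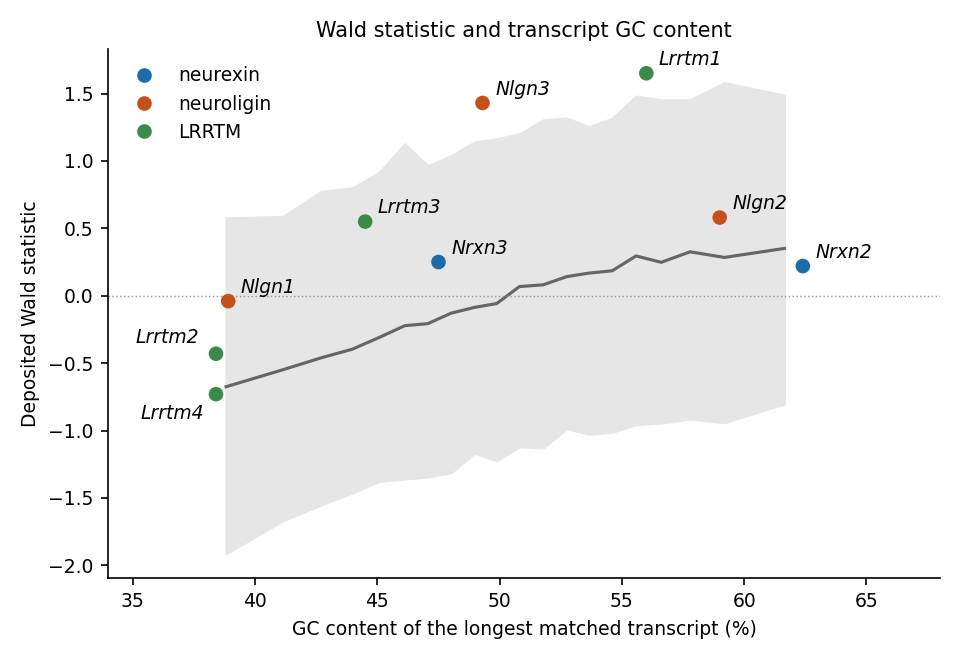
Deposited Wald statistic against GC content of the longest named transcript, with the median (line) and the 5th to 95th percentiles (band) of all rows in 20 bins. Nlgn3 and Lrrtm1 lie above the band, and Lrrtm2 and Lrrtm4 at the low-GC end lie near the line's start.

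The partner genes of these proteins and genes of other synaptic adhesion families had no called member either. Of 91 such genes in 4 lists, 0 passed a DESeq2 adjusted p of 0.05 in the authors' deposited table. Signs were positive for 52 and negative for 39 (57.1% positive), and 2 had an unadjusted p under 0.05 (2.2%, against 1.50% of all rows). Those 2 were both in the list of other adhesion families. On the neurexin side (neurexophilins, cerebellins, latrophilins, calsyntenins, intracellular scaffolds and splicing regulators) 14 of 28 genes were positive and 14 negative in the authors' deposited table. Of 30 genes in that list, Ca10 and Ca11 were not found under those symbols. The smallest p there belonged to Nxph3, which codes for a neurexophilin, a secreted alpha-neurexin ligand, at a log2 fold change of 0.20 (SE 0.11) by the authors' deposited table (DESeq2 p = 0.0611, adjusted p = 0.9997). Next came the cerebellin gene Cbln3 at -0.08 with an SE of 0.05, at a mean normalized count of only 2.838 in the authors' deposited table. The most abundant rows by mean normalized count, without regard to length, were the calsyntenin gene Clstn1 (16630) and the latrophilin gene Adgrl1 (6580), for which the authors' deposited table gives log2 fold changes of 0.13 and 0.12 with an SE of 0.10 each.

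On the neuroligin side (postsynaptic scaffolds, gephyrin and its partners, and the MDGA proteins, which block neuroligins from neurexins) 10 of 19 genes were positive and 9 negative in the authors' deposited table. Dlg4, which codes for the scaffold PSD-95, had 0.13 as its log2 fold change in the authors' deposited table (SE 0.09, DESeq2 p = 0.15, adjusted p = 0.9997), at 5226 mean normalized counts. Mdga2 had -0.13 with an SE of 0.10, and the scaffold gene Dlg2 -0.02 with an SE of 0.10, in the authors' deposited table. On the LRRTM side (glypicans, syndecans and Dlg4, listed together with the alpha-catenin host genes) 8 of 12 were positive and 4 negative. The syndecan gene Sdc4 had the smallest p there, at -0.17 with an SE of 0.10 in the authors' deposited table (DESeq2 p = 0.0818, adjusted p = 0.9997).

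Among 33 genes of other synaptic adhesion families, 21 were positive and 12 negative in the authors' deposited table. Both listed genes that reached an unadjusted p of 0.05 were in this group and were negative, and the partner lists held 0. Tenm3, which codes for a teneurin, a ligand of latrophilins, had -0.24 as its log2 fold change (SE 0.11) in the authors' deposited table (DESeq2 p = 0.0225, adjusted p = 0.9997). Slitrk4, of the SLITRK family of leucine-rich repeat adhesion proteins, had -0.20 with an SE of 0.10 in the authors' deposited table (DESeq2 p = 0.0393, adjusted p = 0.9997). The GC content of the longest named transcript was 34.7% for Slitrk4 and 51.2% for Tenm3, against a median of 50.3% over all rows. The receptor phosphatase genes Ptprs and Ptprd, which code for presynaptic partners of SLITRK proteins, had 0.07 and -0.03 in the authors' deposited table. The medians of the partner lists and of this last list, in the order given here, were -0.00, 0.00, 0.04 and 0.02, against 0.02 for the 9 adhesion genes.

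**Figure D5:**
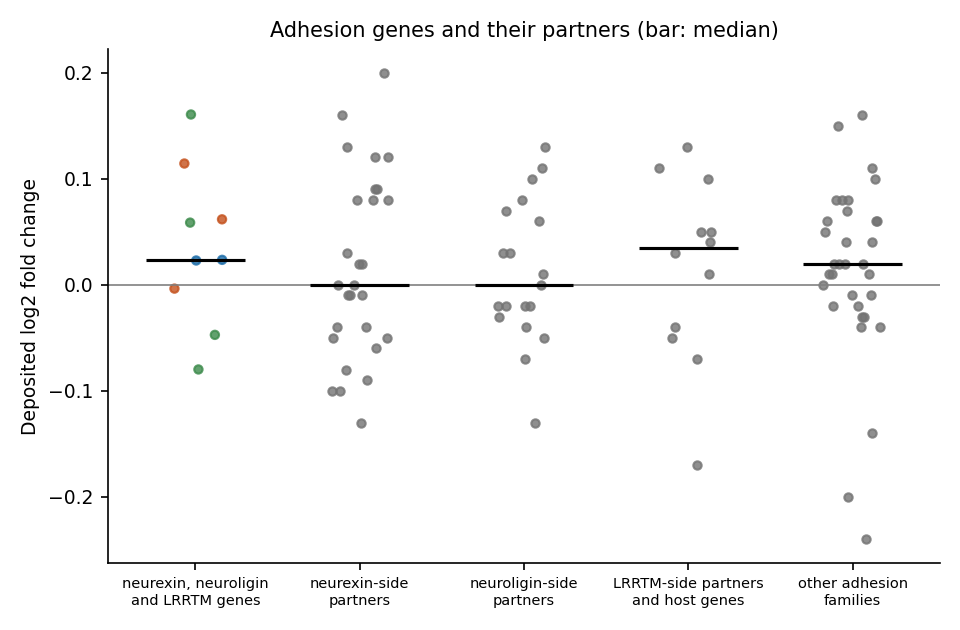
Deposited log2 fold change of each gene (point, whose sideways spread has no meaning) for the 9 adhesion genes, the partner lists and the list of other adhesion families, with bars at the medians. All points lie between -0.24 and 0.20, and each list has genes on both sides of 0.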

How the data were processed

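RNA of 5 C9-BAC and 3 wild-type brain samples was extracted with Trizol and made into strand-specific libraries without poly(A) selection, per the labels' protocols. The submitters' processing notes name Trimmomatic, Bowtie2, DESeq, DESeq2 and the build mm10. No source used here gives the counter, the annotation or the filters. The deposited table holds, per the file headers, a mean normalized count (a signal averaged over samples by the authors, not a count per sample), a log2 fold change and its SE, a Wald statistic (a score), and a p-value with its adjusted p-value. The deposited statistic, p and adjusted p were recomputed from the other columns and differed by at most 8.3e-07, 8.8e-10 and 5.3e-12.

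No model was fitted, since the file has no values per sample. Whether the samples are separate animals is not stated. If they are not, the p-values reflect a spread among samples that may be technical. Depth per sample was not analysed here; the mean normalized counts sum to 9226666. Row accessions were matched to RefSeq GRCm38.p6 symbols for 15853 rows and to GENCODE vM21 for 77 more, leaving 48 without a symbol. GC content and length, from GENCODE transcripts, were found for 15751 rows (98.6%). Gene coordinates are RefSeq's and 1-based. Coding sequences were aligned with MAFFT 7.526. The GC trend was a lowess curve (fraction 0.3, statsmodels 0.14.6), tested on simulated data, and bin medians used 20 equal bins. Named genes are the 9 adhesion genes, the 2 smallest p and 2 highest means of each gene list, every row past the adjusted p, and host genes. With 1 value per gene, no gene of like pattern over samples could be named. The members and lists were chosen with earlier results of these data known.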

Additional observations from a re-analysis of the deposited data

How the results depend on the processing

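No paired analysis was possible because the file holds 1 value per gene and the genotypes share no replicate number, and for the same reason fits without 1 sample were not run. The count of adhesion genes past the adjusted p was 0 with p adjusted over rows whose mean normalized count reached 10 or 100 and at a threshold of 0.1, as was the count over all rows (13704, 9618 and 15944 rows). The count with an unadjusted p under 0.05 was 0 with the statistic centred on its median, where 237 of 15944 rows (1.49%) reached that level, or freed of its GC trend, where 157 of 15718 rows (0.999%) did. Of 36 single-gene fold changes under 4 settings, 31 kept their sign. The 5 that reversed were Nlgn1 centred on the median of all rows (0.0008) or of rows with a mean of at least 10 (0.0002), and Nlgn1 (0.0602), Nrxn2 (-0.0112) and Lrrtm2 (0.0165) with the median of like GC content removed. The ratio of the highest to the lowest level per kb was 4.09 with the longest and 8.6 with the shortest transcript, because row lengths differ. Counts of positive genes in the partner lists and the list of other adhesion families stayed within 1.5 times when centred. Depth sets no limit that can be given, since counts per sample were not analysed here.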
